A study of Mus musculus with 14 samples.

Results

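Transcripts of 44 genes that act in mitosis were measured in T cells sorted from mouse tumours. The genes were taken by name for their roles between entry into mitosis and the splitting of the cell. All 44 were found by symbol among the 25124 genes of the raw count table, and all 44 passed the filter on low counts, which kept 13434 genes. The labels describe each mouse as a female C57BL/6 animal of the genotype GATIR Foxp3Cre-rfp Gata3Cre-yfp, aged 8 to 12 weeks, with a subcutaneous tumour grown from AE17-OVA cells, a mouse mesothelioma line that expresses ovalbumin. On day 10 the mice received 200 µg of an antibody into the peritoneum, either anti-PD-L1 (clone MIH5), which binds a ligand through which PD-1 inhibits T cells, or an isotype control (clone 2A3). On day 13, CD4 T cells, regulatory T cells without PD-1 (PD-1- Tregs) and regulatory T cells with PD-1 (PD-1+ Tregs) were sorted by CD4, CD25, PD-1 and the red Foxp3 reporter. Tregs restrain immune responses and are marked by the transcription factor Foxp3. The 14 Smart-seq2 libraries, made by amplifying full-length cDNA from small inputs, comprised 2 isotype and 3 treated libraries of CD4 T cells, 2 and 2 of PD-1- Tregs, and 2 and 3 of PD-1+ Tregs. No group was free of antibody or of the reporter alleles. The sources used here do not say which animals or pools gave each library, so each p-value reflects only how much these libraries vary, which may be technical.

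A cell enters mitosis when the kinase CDK1, bound to cyclin B, is switched on. Condensins compact the chromosomes, kinesin motors and microtubule proteins build the spindle, and the spindle checkpoint holds anaphase until each kinetochore is attached. The anaphase-promoting complex (APC/C) then destroys cyclins and securin, separase cuts cohesin, and the central spindle directs cytokinesis. Transcripts of most of these genes are low in resting cells and peak in G2 and M phase. In bulk RNA their level follows how many of the sorted cells are dividing, and fewer dividing cells cannot be told apart from less RNA per cell.

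Promoters of mitotic genes are known for 2 short elements, the cell cycle genes homology region (CHR), which the MuvB complexes bind, and CCAAT boxes, which NF-Y binds. RefSeq promoter sequences (assembly GRCm38.p6, the build the files use as mm10) were found for 37 of the 44 genes, each 300 bases long with 250 before and 50 after the start site. The letters TTTGAA or TTTAAA, on either strand, lay in the window of 31 of the 37 genes (83.8%), against 30.6% of all 27025 genes in the same table. CCAAT, on either strand, lay in 83.8% against 41.1%. Both kinds of letters stood in 1 window for 28 of the 37 genes (75.7%), against 12.2% of all genes. Of the CHR letters, TTTGAA alone was found in 28 genes (75.7% against 20.2%) and TTTAAA in 8 (21.6% against 14.9%). These elements belong to genes chosen for mitosis, so the shares describe the list, and a match is not a bound site. None of the 3 words was found in the windows of Nusap1, Pttg1 and Ncaph.

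The 120 bases before the start are shown for some of the genes whose levels in every library are given below. Bub1, Nusap1, Birc5 and Kif11 passed a test in at least 1 comparison, and Cdk1 and Ccnb2 were added, after their values were seen, as the kinase and cyclin of mitotic entry. Capitals mark TTTGAA and TTTAAA, the CCAAT word, and the reverse complements TTCAAA and ATTGG. Positions are GRCm38.p6, and each sequence is written 5′ to 3′ along the strand of its gene.
Cdk1 (chr10:69352913-69353032, minus strand): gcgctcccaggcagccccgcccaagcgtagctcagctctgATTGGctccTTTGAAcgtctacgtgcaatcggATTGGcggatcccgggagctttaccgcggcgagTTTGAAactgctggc
Ccnb2 (chr9:70421555-70421674, minus strand): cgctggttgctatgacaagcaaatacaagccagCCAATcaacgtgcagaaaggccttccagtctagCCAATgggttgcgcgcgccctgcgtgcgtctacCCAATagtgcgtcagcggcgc
Bub1 (chr2:127831860-127831979, minus strand): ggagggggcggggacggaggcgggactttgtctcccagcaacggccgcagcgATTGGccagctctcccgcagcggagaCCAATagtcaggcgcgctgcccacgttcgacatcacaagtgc
Birc5 (chr11:117849117-117849236, plus strand): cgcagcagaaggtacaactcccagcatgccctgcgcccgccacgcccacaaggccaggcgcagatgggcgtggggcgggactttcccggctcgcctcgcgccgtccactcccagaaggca
Kif11 (chr19:37376262-37376381, plus strand): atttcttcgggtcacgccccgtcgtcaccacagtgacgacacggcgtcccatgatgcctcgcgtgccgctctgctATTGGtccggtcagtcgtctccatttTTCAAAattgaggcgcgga
Nusap1 (chr2:119618178-119618297, plus strand): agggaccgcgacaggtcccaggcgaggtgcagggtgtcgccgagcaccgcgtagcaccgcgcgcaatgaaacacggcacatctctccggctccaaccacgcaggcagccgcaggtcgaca
Cdk1 carries TTTGAA in the last stretch before its start and again further up, between reversed CCAAT boxes. Ccnb2 carries CCAAT 3 times and Bub1 carries it once on each strand. Kif11 holds a reversed CHR word downstream of a reversed CCAAT box, while the shown bases of Birc5 and Nusap1 hold none of the words. For Ncapg, Kif2c and Ttk, which also passed a test, the start site in the table lies inside the annotated gene, and their windows are not printed.

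Total counts ran from 10638848 to 15030804 per library. The 10 T cell markers were found in every library, and 6 Treg markers summed to 413 to 1415 CPM (counts scaled to library size) in CD4 T cells, 2082 to 3549 in PD-1- and 1794 to 3135 in PD-1+ Tregs, with no overlap between CD4 T cells and either Treg type. Foxp3 alone ranged from 15.9 to 156 CPM in PD-1+ Tregs and from 16.3 to 55.0 in CD4 T cells, so on that gene these populations overlapped. The labels call all mice female, yet 3 treated libraries held 2767 to 2966 counts of 4 Y-linked genes (Uty, Kdm5d, Eif2s3y and Ddx3y), where the others held 0 or 1. They are CD4 T cell replicate 3, PD-1- Treg replicate 2 and PD-1+ Treg replicate 3, which share the bracketed number 3 in their titles, and the numbers of genes called and of genes without overlap are given with and without them.

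Detection of the mitosis genes set the PD-1- Tregs apart. In CD4 T cells, 44 and 44 of the 44 genes had at least 1 count in the isotype libraries and 44, 41 and 44 in the treated ones. In PD-1+ Tregs the numbers were 43 and 44 under isotype and 42, 42 and 41 under anti-PD-L1. In PD-1- Tregs they were 33 and 30 under isotype and 38 and 23 under anti-PD-L1. Every PD-1- library thus lay below every library of the other populations, and the treated pair held both the highest and the lowest PD-1- library.

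Fewer genes of any kind were found in PD-1- Tregs. Of all 13434 genes tested, the share with a count was 94.0 ± 4.11% for CD4 libraries (SD over 5 libraries), 61.8 ± 2.63% for PD-1- libraries (4 libraries) and 76.9 ± 4.43% for PD-1+ libraries (5 libraries). For the mitosis genes the shares were 98.6 ± 3.05%, 70.5 ± 14.3% and 96.4 ± 2.59%. PD-1+ Tregs missed about as few mitosis genes as CD4 T cells did, while missing more genes overall. Drawing every library down to the smallest total of 10638848 counts left the number of mitosis genes found in each library as it was. A gene at 0 counts could still have stood at up to 0.198 to 0.292 CPM, the value of 3 counts. This limit takes in counting error alone, because reads copied by amplification do not count separate molecules.

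Of the 44 genes, 19 were found in all 14 libraries, among them Ccnb1, Ccnb2, Birc5, Top2a, Mki67, Cenpa, Kif20a and Prc1. CD4 T cells had 41 genes in every library and PD-1+ Tregs 39. In PD-1- Tregs, Ttk and Ncapg were found in no library, and Plk1, Cenpe, Kif11, Kif4, Kif2c and Hmmr in 1 of 4. Those 8 genes encode 2 kinases, a condensin subunit, 4 kinesin motors and a spindle protein. Of PD-1- libraries, treated replicate 2 lacked 21 genes, including Cdk1, Ccna2, Plk1, Aurka and Aurkb, while treated replicate 1 lacked 6.

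**Figure D1:**
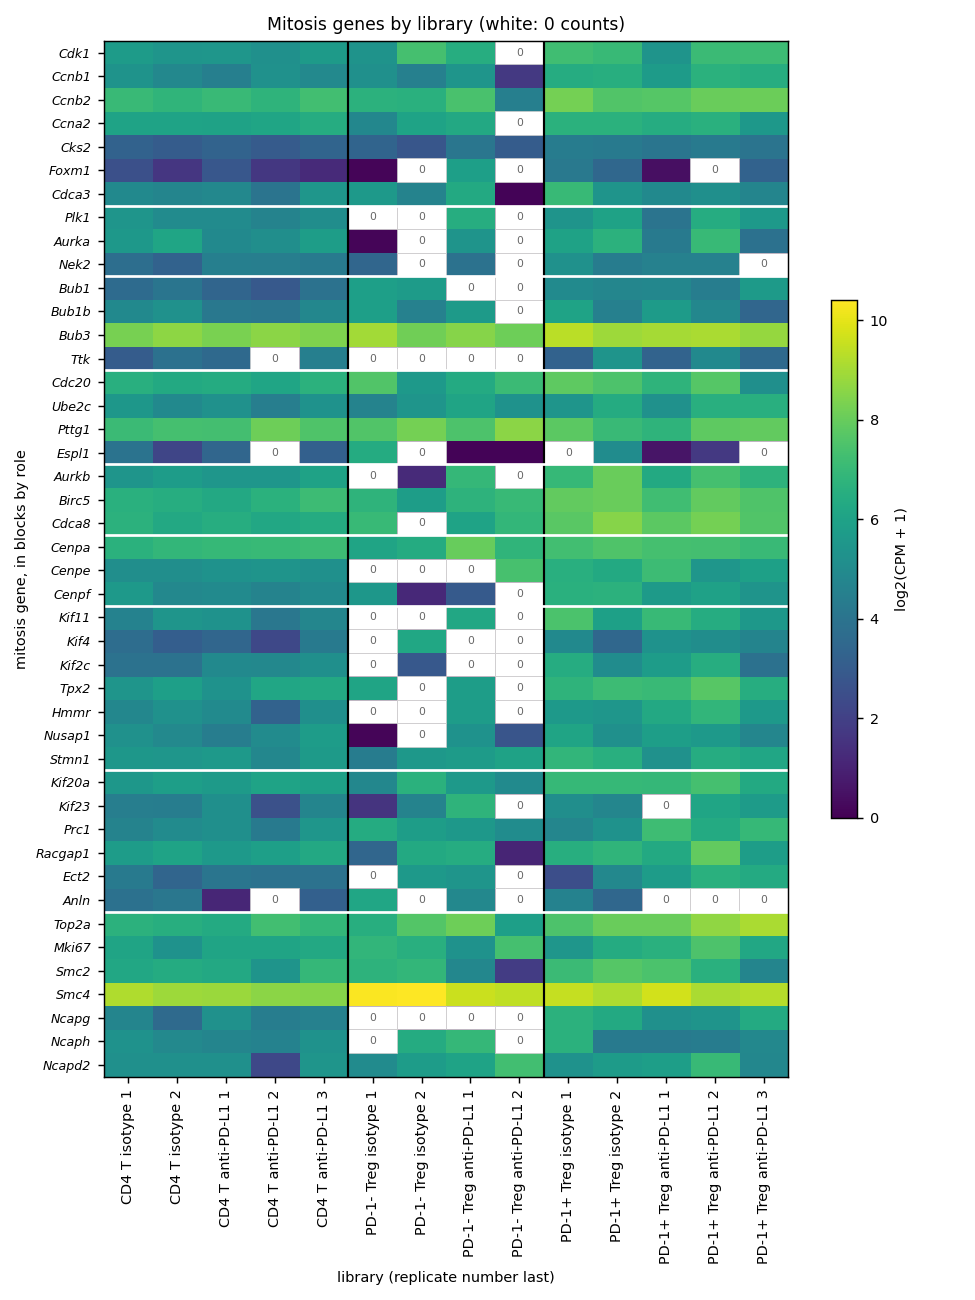
Level of each of the 44 mitosis genes (vertical axis, in blocks by role) in each of the 14 libraries (horizontal axis) as log2(CPM + 1), with white cells marked 0 where the gene had no count. White cells gather in the 4 PD-1- Treg libraries, which hold 23 to 38 of the 44 genes, and Ttk and Ncapg are white in all 4.

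Summed over the 44 genes, the level was highest in PD-1+ Tregs. The sum was 2809 and 2734 CPM in isotype and 2618, 2589.8 and 3025 in treated CD4 T cells. It was 3661 and 3607 in isotype and 3905 and 2592 in treated PD-1- Tregs, and 5403 and 5029 in isotype and 4543, 5748 and 4364 in treated PD-1+ Tregs. With this scaling every PD-1+ library lay above every library of the other populations, and treated PD-1- replicate 2 lay among the CD4 libraries. Scaled to library totals alone, treated PD-1+ replicate 3 (3984 CPM) lay below treated PD-1- replicate 1 (4118 CPM). Summed over values also scaled by gene length (RPKM), treated PD-1+ replicates 1 and 3 (1449 and 1514) lay below that PD-1- library (1669). In the CPM used here, the PD-1+ mean was 1.82 times that of CD4 T cells and 1.46 times that of PD-1- Tregs. The median gene of a library stood at 37.1 ± 5.79 CPM for CD4 libraries (SD over 5 libraries), 29.0 ± 22.0 for PD-1- libraries (4 libraries) and 75.0 ± 21.0 for PD-1+ libraries (5 libraries), where PD-1- and CD4 T cells no longer differed beyond their spread.

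A few abundant genes carried the sum. Smc4, Bub3 and Pttg1 made up 33.9 to 54.6% of it in PD-1- Tregs, 29.4 to 40.9% among CD4 libraries and 22.9 to 32.1% among PD-1+ Tregs. Without them the other 41 genes summed to 1661 and 1655 CPM in isotype and 2583 and 1238 in treated PD-1- Tregs, a range that takes in all 5 CD4 libraries but 0 of the PD-1+ ones. Per length, in the deposited RPKM (reads scaled by gene length and library size), the order at the top of the list also differed. In CD4 T cells Pttg1 led with 214 ± 60.5 RPKM (SD, n = 5), followed by Bub3 at 151 ± 17.5 and Smc4 at 93.8 ± 17.8. In PD-1- Tregs the order was Pttg1 at 284 ± 105 (n = 4), Smc4 at 203 ± 56.5 and Bub3 at 149 ± 40.9. In PD-1+ Tregs Bub3 at 211 ± 41.3, Pttg1 at 201 ± 68.0 and Birc5 at 187 ± 49.8 (n = 5) did not differ beyond their spread, and Cdca8 at 135 ± 45.5 and Ccnb2 at 134 ± 27.0 came before Smc4 at 127 ± 22.7.

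**Figure D2:**
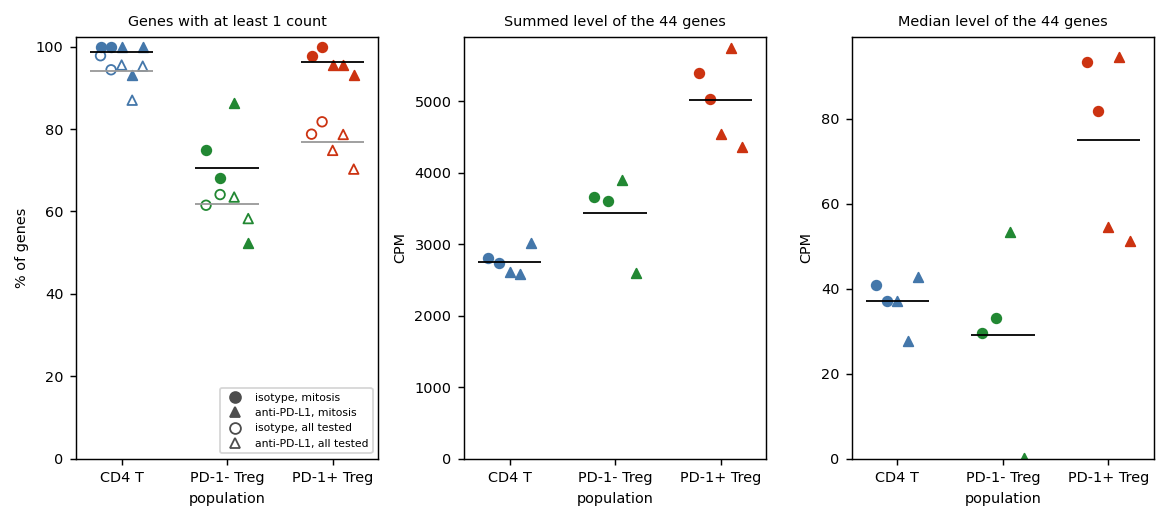
Left, share of genes with at least 1 count per library for the 44 mitosis genes (filled) and all 13434 genes tested (open); middle and right, summed and median level of the 44 genes in CPM. Circles are isotype and triangles anti-PD-L1 libraries, and lines are means per population. In the CPM shown all PD-1+ Treg libraries have a higher sum than any other library, which did not hold in RPKM.

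CDK1, its cyclins and their regulators summed to 314 ± 39.6 CPM for CD4, 300.4 ± 210.0 for PD-1- and 613 ± 137 for PD-1+ libraries (7 genes). Cdk1, the kinase that drives entry into mitosis, stood at 52.3 and 41.6 CPM (isotype) and 43.8, 36.4 and 50.1 (treated) among CD4 libraries, at 39.7 and 163 (isotype) and 89.5 and 0 (treated) among PD-1- libraries, and at 149 and 128 (isotype) and 41.0, 137 and 141 (treated) among PD-1+ libraries. Of the 5 PD-1+ libraries, 4 exceeded every CD4 library, while treated replicate 1 lay among them, and 1 PD-1- library had no count. Ccnb1, which encodes cyclin B1, stood at 39.9 and 27.9 CPM (isotype) and 21.7, 37.7 and 28.7 (treated) among CD4 libraries, at 36.2 and 22.4 (isotype) and 41.7 and 2.27 (treated) among PD-1- libraries, and at 87.1 and 90.8 (isotype) and 51.8, 101 and 89.5 (treated) among PD-1+ libraries. Its PD-1+ libraries all lay above those of both other populations. The same held for Ccnb2, which encodes cyclin B2, with 133 and 113 CPM (isotype) and 132, 108 and 152 (treated) among CD4 libraries, 104 and 96.6 (isotype) and 169 and 21.8 (treated) among PD-1- libraries, and 304 and 194 (isotype) and 202, 262 and 269.6 (treated) among PD-1+ libraries.

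Foxm1, a transcription factor of G2 and M phase genes, was scarce, at 4.83 and 2.10 CPM (isotype) and 6.19, 2.23 and 1.35 (treated) among CD4 libraries, at 0.0931 and 0 (isotype) and 58.0 and 0 (treated) among PD-1- libraries, and at 17.4 and 10.0 (isotype) and 0.343, 0 and 8.57 (treated) among PD-1+ libraries. Its highest level came from 1 treated PD-1- library, and the PD-1+ and CD4 ranges overlapped. Of the other regulators, Cks2, a CDK1-binding subunit, averaged 8.21 ± 1.05 CPM over 5 CD4 and 17.5 ± 2.16 over 5 PD-1+ libraries (SD), without overlap. Ccna2, which encodes cyclin A2, averaged 70.0 ± 10.2, 42.3 ± 35.3 and 86.1 ± 23.2 CPM in CD4 T cells, PD-1- and PD-1+ Tregs, the order kept for all triplets below (SD over 5, 4 and 5 libraries). Cdca3, a factor in the turnover of the entry inhibitor WEE1, averaged 28.2 ± 10.0, 37.4 ± 33.4 and 52.3 ± 43.7, and both genes overlapped between all populations.

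The mitotic kinases Plk1, Aurka and Nek2, of which 0 to 3 were found in a PD-1- library, summed to 95.7 ± 13.4 CPM for CD4, 38.4 ± 70.3 for PD-1- and 137 ± 78.3 for PD-1+ libraries. Plk1, which acts in centrosome maturation and mitotic exit, stood at 42.8 and 31.5 CPM (isotype) and 31.4, 23.9 and 33.3 (treated) among CD4 libraries and at 41.1 and 62.9 (isotype) and 15.3, 86.5 and 48.6 (treated) among PD-1+ libraries. In PD-1- Tregs all its reads, 88.0 CPM, came from treated replicate 1. Aurka, the spindle pole kinase, averaged 46.6 ± 15.4 CPM over CD4 and 65.1 ± 50.7 over PD-1+ libraries, and Nek2, a centrosome kinase, 16.5 ± 5.59 and 20.5 ± 13.4. For each of the 3 kinases the PD-1+ range took in CD4 values.

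The spindle checkpoint genes Bub1, Bub1b, Bub3 and Ttk summed to 399.9 ± 46.5 CPM for CD4, 418 ± 145 for PD-1- and 607 ± 92.3 for PD-1+ libraries. Bub1 (NCBI gene 12235, chromosome 2, 127800197 to 127831859), a checkpoint kinase at the kinetochore, stood at 11.4 and 15.6 CPM (isotype) and 9.62, 6.62 and 14.4 (treated) among CD4 libraries, at 58.4 and 52.0 (isotype) and 0 and 0 (treated) among PD-1- libraries, and at 30.4 and 26.3 (isotype) and 26.9, 20.5 and 50.8 (treated) among PD-1+ libraries. PD-1+ Tregs lay above CD4 T cells in every library, and PD-1- Tregs split by treatment, with isotype libraries above all others and treated libraries at 0. Ttk (NCBI gene 22137, chromosome 9, 83834651 to 83872390), the kinase that starts the checkpoint signal, stood at 7.24 and 13.7 CPM (isotype) and 10.9, 0 and 21.9 (treated) among CD4 libraries, at 0 in all PD-1- libraries, and at 8.58 and 40.9 (isotype) and 8.84, 29.5 and 10.8 (treated) among PD-1+ libraries. Bub3, a checkpoint scaffold, averaged 352 ± 42.6, 358 ± 104 and 521 ± 82.4 CPM and did not overlap between PD-1+ Tregs and CD4 T cells. Bub1b, the checkpoint partner of the APC/C, averaged 25.8 ± 9.18, 32.8 ± 26.6 and 35.3 ± 22.7.

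The APC/C and separase group overlapped between all populations, with 310.1 ± 39.7 CPM for CD4, 444 ± 104 for PD-1- and 416 ± 108 for PD-1+ libraries. Pttg1, which encodes the separase inhibitor securin, averaged 183 ± 55.8, 266 ± 98.4 and 187 ± 61.4 CPM and overlapped between all populations. Cdc20, the APC/C activator, averaged 85.2 ± 12.8, 114 ± 62.3 and 152 ± 79.1. Ube2c, its ubiquitin-conjugating enzyme, averaged 34.3 ± 9.30, 42.9 ± 17.5 and 70.1 ± 27.9, and Espl1, separase itself, 7.26 ± 5.71, 21.2 ± 42.4 and 7.08 ± 14.3.

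The chromosomal passenger complex corrects faulty attachments and guides cytokinesis. Its genes Aurkb, Birc5 and Cdca8 summed to 235 ± 32.8 CPM for CD4, 207 ± 104 for PD-1- and 624 ± 181 for PD-1+ libraries, and the PD-1+ range of 448 to 894 lay above the 209 to 289 of CD4 T cells and the 55.3 to 291 of PD-1- Tregs. Birc5 (NCBI gene 11799, chromosome 11, 117849237 to 117855743), which encodes survivin, stood at 97.2 and 88.1 CPM (isotype) and 76.2, 99.5 and 142 (treated) among CD4 libraries, at 108 and 53.9 (isotype) and 104 and 127 (treated) among PD-1- libraries, and at 243 and 261 (isotype) and 148, 239.6 and 188 (treated) among PD-1+ libraries. All PD-1+ libraries lay above all others, the nearest pair being 148 in PD-1+ and 142 in CD4 T cells. Aurkb, the kinase of the complex, stood at 42.6 and 52.6 CPM (isotype) and 43.0, 43.0 and 62.6 (treated) among CD4 libraries, at 0 and 1.36 (isotype) and 121 and 0 (treated) among PD-1- libraries, and at 126 and 264 (isotype) and 80.5, 163 and 106 (treated) among PD-1+ libraries. Here PD-1+ Tregs exceeded CD4 T cells without overlap, and 1 treated PD-1- library reached into their range. Cdca8, which encodes borealin, averaged 85.4 ± 10.7, 77.9 ± 58.6 and 260.4 ± 74.2 CPM, with all PD-1+ libraries on top.

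Centromere and kinetochore genes summed to 192 ± 11.7 CPM for CD4, 183 ± 98.9 for PD-1- and 312 ± 60.3 for PD-1+ libraries. Cenpa, the centromeric histone H3 variant, averaged 122 ± 15.5, 129 ± 84.1 and 158 ± 19.2 CPM. Cenpe, a kinetochore motor, was at 0 in 3 PD-1- libraries and at 164 CPM in the other, while 94.9 and 79.6 (isotype) and 139, 43.7 and 60.3 (treated) among PD-1+ libraries stayed above the 34.3 to 41.4 CPM of CD4 T cells. Cenpf, a large kinetochore protein, averaged 32.3 ± 8.76, 13.2 ± 21.4 and 70.8 ± 27.7.

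Spindle motors and microtubule proteins held 4 of the 8 genes that were found in at most 1 PD-1- library, and summed to 226 ± 42.8 CPM for CD4, 139 ± 92.3 for PD-1- and 512 ± 147 for PD-1+ libraries. Kif11 (NCBI gene 16551, chromosome 19, 37376382 to 37421863), the motor that pushes spindle poles apart, stood at 23.5 and 42.4 CPM (isotype) and 38.8, 16.6 and 26.7 (treated) among CD4 libraries, at 0 and 0 (isotype) and 76.0 and 0 (treated) among PD-1- libraries, and at 176 and 59.4 (isotype) and 129.6, 86.3 and 45.9 (treated) among PD-1+ libraries. PD-1+ Tregs lay above CD4 T cells without overlap, and the only PD-1- reads came from treated replicate 1. Kif2c (NCBI gene 73804, chromosome 4, 117159633 to 117182624), which depolymerises microtubules at kinetochores, stood at 14.2 and 14.2 CPM (isotype) and 29.5, 27.7 and 35.6 (treated) among CD4 libraries, at 0 and 6.24 (isotype) and 0 and 0 (treated) among PD-1- libraries, and at 85.5 and 32.9 (isotype) and 53.2, 88.4 and 13.7 (treated) among PD-1+ libraries. PD-1- Tregs lay below both other populations, which overlapped with each other.

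Nusap1 (NCBI gene 108907, chromosome 2, 119618298 to 119650165), which bundles spindle microtubules, stood at 37.1 and 29.0 CPM (isotype) and 20.4, 31.3 and 52.4 (treated) among CD4 libraries, at 0.0931 and 0 (isotype) and 38.5 and 5.72 (treated) among PD-1- libraries, and at 67.6 and 36.9 (isotype) and 55.9, 47.3 and 26.3 (treated) among PD-1+ libraries. The isotype PD-1- libraries held 1 count between them, while the treated PD-1- libraries had 5.72 and 38.5 CPM. Stmn1, which encodes the microtubule destabiliser stathmin, stood at 44.9 and 43.7 CPM (isotype) and 49.2, 27.6 and 50.8 (treated) among CD4 libraries, at 19.8 and 46.5 (isotype) and 51.2 and 63.1 (treated) among PD-1- libraries, and at 116 and 93.9 (isotype) and 37.5, 86.9 and 70.6 (treated) among PD-1+ libraries. All 3 populations overlapped for it. Tpx2, the activator of Aurora A on the spindle, averaged 57.1 ± 17.0, 30.5 ± 35.6 and 137 ± 46.1 CPM, and Hmmr, a spindle pole protein, 27.7 ± 11.4, 13.1 ± 26.3 and 66.1 ± 30.9. Both were higher in every PD-1+ than in every CD4 library. Kif4, a chromosome motor, averaged 10.4 ± 5.47, 18.3 ± 36.6 and 27.4 ± 10.9.

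Genes of the central spindle and cytokinesis summed to 190.5 ± 26.3 CPM for CD4, 231 ± 131 for PD-1- and 417 ± 133 for PD-1+ libraries. Kif20a, a motor of the central spindle, averaged 55.4 ± 7.93, 50.9 ± 33.2 and 123 ± 29.3 CPM, and its PD-1+ libraries lay above CD4 T cells. Prc1, which cross-links the central spindle, averaged 30.8 ± 9.92, 54.6 ± 21.9 and 83.5 ± 52.2. The centralspindlin genes Kif23 and Racgap1 averaged 36.1 ± 25.9 and 115 ± 71.6 CPM in PD-1+ Tregs and 21.4 ± 11.0 and 60.5 ± 11.4 in CD4 T cells. Ect2, which activates RhoA at the cleavage furrow, averaged 14.4 ± 3.32, 22.1 ± 25.6 and 52.8 ± 37.8. Anln, the furrow scaffold anillin, went the other way, at 7.95 ± 7.38, 24.9 ± 33.6 and 6.69 ± 10.3, within its spread.

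Condensins, topoisomerase and the chromosome surface protein Ki-67 summed to 793 ± 83.0 CPM for CD4, 1481 ± 374 for PD-1- and 1380.1 ± 88.2 for PD-1+ libraries. Here the PD-1- mean was not below the PD-1+ mean, which was also so for the APC/C and separase group. Smc4 (NCBI gene 70099, chromosome 3, 69004738 to 69034623), the ATPase shared by both condensins, stood at 578 and 481 CPM (isotype) and 456, 388 and 369 (treated) among CD4 libraries, at 1307 and 1368 (isotype) and 770.0 and 688 (treated) among PD-1- libraries, and at 731 and 559.9 (isotype) and 842, 539 and 616 (treated) among PD-1+ libraries. Every PD-1- library lay above every CD4 library, and the isotype PD-1- pair above all other libraries. Ncapg (NCBI gene 54392, chromosome 5, 45669891 to 45700547), a subunit of condensin I alone, stood at 25.8 and 11.0 CPM (isotype) and 37.8, 20.6 and 22.7 (treated) among CD4 libraries, at 0 in all PD-1- libraries, and at 102 and 78.3 (isotype) and 36.8, 41.2 and 81.2 (treated) among PD-1+ libraries. The partner subunits thus had opposite patterns in PD-1- Tregs.

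Top2a, which untangles replicated DNA, stood at 104 and 90.9 CPM (isotype) and 81.4, 152 and 119 (treated) among CD4 libraries, at 91.8 and 195 (isotype) and 274 and 57.7 (treated) among PD-1- libraries, and at 183 and 259 (isotype) and 259, 417 and 549 (treated) among PD-1+ libraries. PD-1+ Tregs lay above CD4 T cells in every library and overlapped PD-1- Tregs. Mki67, which encodes the proliferation marker Ki-67, stood at 66.6 and 38.8 CPM (isotype) and 66.0, 66.6 and 76.7 (treated) among CD4 libraries, at 115 and 93.5 (isotype) and 38.7 and 164 (treated) among PD-1- libraries, and at 43.8 and 84.1 (isotype) and 97.8, 182 and 74.2 (treated) among PD-1+ libraries. All populations overlapped for Mki67. Smc2, the other condensin ATPase, averaged 79.9 ± 28.4, 63.2 ± 56.6 and 128 ± 69.7 CPM, the condensin I subunit Ncaph 31.3 ± 7.37, 51.6 ± 61.7 and 36.7 ± 35.3, and its partner Ncapd2 31.3 ± 15.6, 75.7 ± 53.0 and 60.4 ± 39.2.

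**Figure D3:**
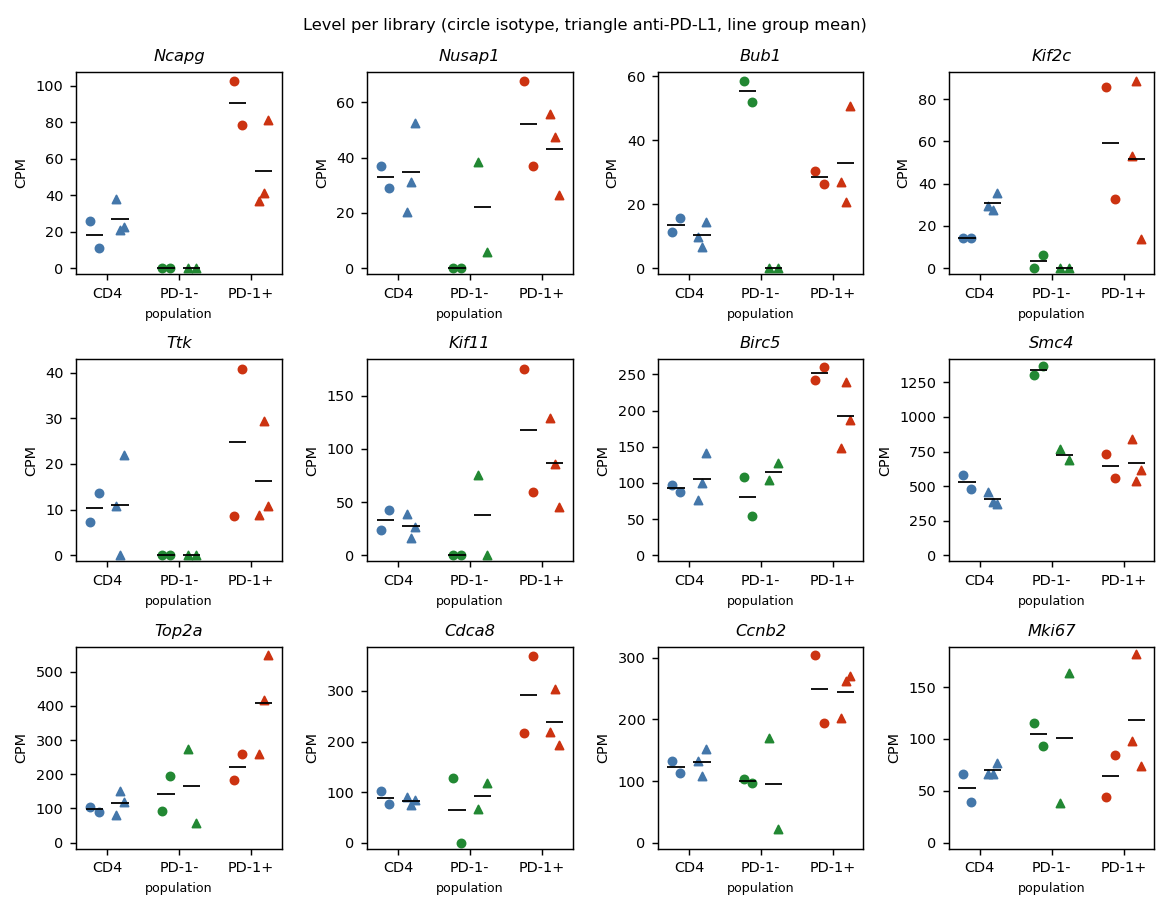
Level in CPM (vertical axes, each from 0) of 12 mitosis genes in every library, by population (horizontal axis), with circles for isotype, triangles for anti-PD-L1 and lines for group means. Ncapg and Ttk are at 0 in all 4 PD-1- Treg libraries, and Smc4 is highest in the isotype PD-1- pair. Bub1 is at 52.0 and 58.4 CPM in isotype but 0 in treated PD-1- Tregs.

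PD-1+ and PD-1- Tregs were compared over both treatments. In edgeR, 7 of the 44 genes were higher in PD-1+ Tregs and 0 lower at an adjusted p under 0.05, where 4.28% of all genes were called, 3.80% higher and 0.476% lower. They were the condensin gene Ncapg, the spindle genes Nusap1, Kif2c and Kif11, the checkpoint kinases Bub1 and Ttk, and Birc5. Ncapg (edgeR adjusted p = 0.00157) was at least 265-fold higher and Ttk (adjusted p = 0.0394) at least 76.9-fold, against a floor of 3 counts per PD-1- library. That floor takes in counting error alone, not the spread between libraries. Birc5, found in all libraries, rose by 1.18 ± 0.30 on the log2 scale (adjusted p = 0.0451). Here and below, ± on a log2 change is a standard error derived from the edgeR test statistic, not an SD over libraries. The ratio of mean levels was 35.1 for Kif2c (adjusted p = 0.0272), 5.23 for Kif11 (adjusted p = 0.0457) and 4.22 for Nusap1 (adjusted p = 0.0191). For Bub1 (adjusted p = 0.0234) it was only 1.12. The fit weights isotype and treated PD-1- means equally on the log scale, and the treated pair was at 0 while the isotype pair exceeded every PD-1+ library.

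By the fit, 38 of the 44 genes were higher in PD-1+ Tregs, with a median of 1.25 on the log2 scale against 0.42 for all genes tested. As the log2 ratio of mean levels, with genes at 0 throughout an arm set to their floor, the medians were 1.02 and 0.16. In 8 genes every PD-1+ library exceeded every PD-1- library (Ccnb1, Ccnb2, Ttk, Birc5, Cdca8, Kif2c, Tpx2 and Ncapg), against 3.24% of all genes, and in 0 genes the reverse held (0.782%). Without the 3 libraries with Y-linked counts these numbers were 13 (all genes: 6.80%) and 0 (2.43%). Smc4 stood out in the other direction, at -0.59 ± 0.16 (adjusted p = 0.0565). With DESeq2's size factors in edgeR it passed (adjusted p = 0.0434) and Birc5 did not (0.0551), giving 6 higher and 1 lower.

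The number of genes called depended on single libraries and on the estimate of the spread. It was 0 in a fit of the 9 Treg libraries alone and under limma-voom with quality weights, 20 with DESeq2 and 17 with limma-voom. With a block by replicate number or by bracketed number it was 1, Ncapg. It was 1 without isotype PD-1+ replicate 1, 2 without isotype PD-1+ replicate 2, 3 without treated PD-1+ replicate 2 and 21 without treated PD-1- replicate 1, the PD-1- library richest in mitosis transcripts. Without the 3 libraries with Y-linked counts it was 7, of which 3 were shared. Ncapg was called in 19 of 21 alternative analyses and Birc5 in 7. Macrophage and monocyte markers moved with this comparison: 12 of 12 were found in every PD-1+ library and 8 or 9 in the PD-1- libraries, summing to 4168 to 8013 and 335 to 1003 CPM, with C1qa at 0 in all PD-1- libraries. The 12 dendritic cell markers, 4 of which are MHC class II genes or their partner Cd74, moved too, at 20164 to 49886 CPM in PD-1+ and 9054 to 16139 in PD-1- Tregs. Of these 7 were called higher in PD-1+ Tregs, and Zbtb46, Xcr1 and Batf3 were at 0 in all PD-1- libraries. Not all went this way: Clec9a was found in 2 PD-1- and 1 PD-1+ libraries and Flt3 in 2 of each. Ccr7 ranged from 175 to 610 CPM in PD-1- and from 34.9 to 315 in PD-1+ Tregs. The part of either marker list in the result was not tested. Mesothelial and stromal markers overlapped, with 394 to 1495 CPM in PD-1+ and 506 to 1818 in PD-1- Tregs. Msln, Krt8 and Krt19 were at 0 in all Treg libraries. Cdh1 was found in 3 PD-1- and 2 PD-1+ libraries, at up to 89.2 and 62.4 CPM. Upk3b was found in 1 library of each, Krt18 in 1 PD-1- library, and Wt1 and Lrrn4 in 1 PD-1+ library each. The part of this list was not tested either.

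Next came PD-1+ Tregs against CD4 T cells, both populations in which most of the genes were found. Of the 44 genes, 42 stood higher in PD-1+ Tregs, all but Anln and Espl1, by a median of 0.93 on the log2 scale (0.95 as the ratio of means). Across all genes tested the median was -0.23 (-0.06 as the ratio of means), and 5275 of 13434 stood higher. In edgeR 0 of the 44 passed the threshold, with 0.350% of all genes called, 0.171% higher and 0.179% lower, and 6 lay under an unadjusted p of 0.05. The 3 lowest were Birc5, at 1.15 ± 0.28 (edgeR adjusted p = 0.156), Top2a, at 1.49 ± 0.41 (adjusted p = 0.223), and Smc4, at 0.50 ± 0.15 (adjusted p = 0.271). In 14 genes every PD-1+ library exceeded every CD4 library, against 1.71% of all genes, and in 0 genes was the reverse true (4.72%). The 14 were Ccnb1, Ccnb2, Cks2, Bub1, Bub3, Aurkb, Birc5, Cdca8, Cenpe, Kif11, Tpx2, Hmmr, Kif20a and Top2a, so that cyclin B, checkpoint, passenger, motor and spindle genes were among them.

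Other estimates of the spread called more of these genes. The test on the 10 libraries of these populations alone called 5, all higher (Cdca8, Top2a, Aurkb, Birc5 and Ccnb2), limma-voom with quality weights 11, all higher, and DESeq2 9, of which 8 were higher. Without the 3 libraries with Y-linked counts, edgeR called 0, and 22 genes were higher in PD-1+ Tregs without overlap, where 3.62% of all genes were in the same libraries, and 0 lower (7.87%). Macrophage markers, 2668 to 7246 CPM in CD4 T cells, overlapped the PD-1+ range, as did dendritic cell markers at 15770.0 to 28976 CPM, and the part of both lists was not tested.

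PD-1- Tregs and CD4 T cells differed in both directions. In edgeR 4 of the 44 genes passed, Smc4 higher and Ncapg, Nusap1 and Kif2c lower, where 3.60% of all genes were called, 0.275% higher and 3.33% lower. Smc4 rose by 1.09 ± 0.16 on the log2 scale, a ratio of means of 2.27 (edgeR adjusted p = 0.00483), and passed in all 21 alternative analyses, with adjusted p-values up to 0.0367. Ncapg was at least 92.1-fold lower against the floor of 3 counts, which takes in counting error alone (adjusted p = 0.00308). It passed in 19 of 21. The level of Nusap1 was 0.326 times (adjusted p = 0.0308) and that of Kif2c 0.0644 times that of CD4 T cells (adjusted p = 0.0497). These passed in 12 and 8 of 21, and Kif2c lost its call with DESeq2's size factors (0.0525). Libraries did not overlap for Smc4 among the higher genes (1.01% of all genes) and for Kif2c and Ncapg among the lower ones (13.0%).

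The direction of the list as a whole depended on the measure. By the fit 18 of 44 genes were higher in PD-1- Tregs, with a median of -0.24 against -0.94 for all genes, and by the ratio of means 24 were higher, with a median of 0.07 against -0.26. The number called was 16 without treated PD-1- replicate 1, 8 without treated PD-1- replicate 2, 13 with DESeq2 and 14 with limma-voom. It was 2 without isotype CD4 replicate 1 or 2 or without treated CD4 replicate 1 or 3, and 5 without the 3 libraries with Y-linked counts. In those remaining libraries 2 genes were higher in PD-1- Tregs without overlap (all genes: 2.85%) and 3 lower (18.9%). The macrophage markers summed to 335 to 1003 CPM in PD-1- Tregs against 2668 to 7246, and 8 of 12 were called lower. Of the 12 dendritic cell markers 6 were called lower, and their sums were 9054 to 16139 against 15770.0 to 28976 CPM. The part of both lists was not tested.

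**Figure D4:**
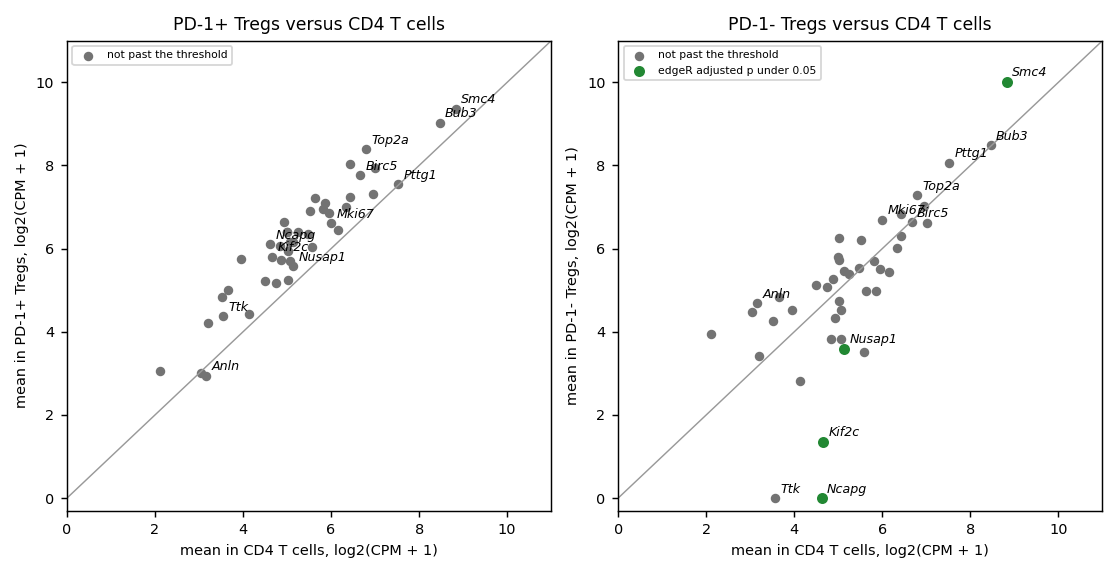
Mean level of each of the 44 mitosis genes as log2(CPM + 1) in PD-1+ Tregs (left) and PD-1- Tregs (right) against CD4 T cells (horizontal axes), with a line of equal level and green points for genes past the edgeR threshold. On the left 42 of 44 genes lie above the line, and on the right the genes scatter to both sides, from Smc4 at the top to Ncapg and Ttk at 0.

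Anti-PD-L1 was compared with isotype within each population, which is the contrast named in the title of the series. In PD-1+ Tregs 0 of the 44 genes passed in edgeR, where 0.0149% of all genes did, and 2 lay under an unadjusted p of 0.05. Under treatment 14 genes stood higher and 30 lower, with a median of -0.22 on the log2 scale against 0 for all genes. Prc1 stood at 26.8 and 38.4 CPM with isotype against 146, 81.1 and 125 under treatment, without overlap, a change of 1.85 ± 0.74 (edgeR adjusted p = 0.596). Anln stood at 23.4 and 10.0 CPM under isotype and at 0 in all 3 treated libraries (adjusted p = 0.596). This was at least 64.0-fold lower against the floor of 3 counts, which takes in counting error alone. Top2a had the next lowest p, at 0.88 ± 0.58 (adjusted p = 0.778). Both Prc1 and Anln act in cytokinesis, and DESeq2 called these 2 genes. Macrophage markers moved with treatment here, with 5391 and 8013 CPM with isotype against 4168, 4419.7 and 5283 under treatment, and 10 of 12 stood lower. The 8 B and plasma cell markers all stood lower, 4 of them under an unadjusted p of 0.05 and 0 called, and summed to 833 and 468 CPM with isotype against 276, 172 and 38.4 under treatment, without overlap. The part of both lists in the result was not tested.

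Without overlap, 2 genes were higher (Prc1 and Ect2) and 8 lower (Ccna2, Cks2, Foxm1, Cdca3, Birc5, Cenpf, Stmn1 and Anln), where 7.69% and 11.5% of all genes did the same. Without the 3 libraries with Y-linked counts edgeR called 0, and 6 genes were higher and 9 lower without overlap (all genes: 14.8% and 16.6%). Of 7 genes around CDK1, 7 stood lower under treatment, by a median of -0.37. The 3 mitotic kinases, 3 passenger genes and 3 centromere and kinetochore genes also stood lower. Higher were 4 of 6 cytokinesis genes and 4 of 7 condensin, topoisomerase and chromosome surface genes. So were 1 of 4 checkpoint genes, 2 of 4 APC/C and separase genes and 3 of 7 spindle motor and microtubule genes. Across all genes tested 6992 of 13434 stood lower. For Birc5 the change was -0.39 ± 0.39 (edgeR adjusted p = 1) and for Mki67 0.88 ± 0.66 (adjusted p = 0.875). Each of these 2 changes was within 2 standard errors of 0.

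In PD-1- Tregs 2 of the 44 genes passed, Bub1 lower and Nusap1 higher, where 2.66% of all genes passed, 1.38% higher and 1.29% lower. Bub1, at 58.4 and 52.0 CPM under isotype, fell to 0 counts in each treated library (edgeR adjusted p = 0.0112). Against a floor of 3 counts this was at least 233-fold. The floor takes in counting error alone, not the spread between libraries. Plk1, for example, stood at 88.0 CPM in treated replicate 1 and at 0 in the other PD-1- libraries. Nusap1 rose from 1 count in the isotype pair to 589 in the treated pair (edgeR adjusted p = 0.0284). The ratio of pooled counts was 505, with a 95% counting interval of 90.3 to 19982. That interval takes in counting error alone and leaves out the spread between libraries, so it does not bound the effect of treatment. Across the 44 genes 21 stood higher and 23 lower. Smc4 stood at 1307 and 1368 CPM with isotype against 770.0 and 688 under treatment, without overlap, a change of -0.88 ± 0.24 that did not pass (adjusted p = 0.0728). Without overlap, 4 genes were higher (Cenpa, Nusap1, Stmn1 and Ncapd2) and 4 lower (Bub1, Prc1, Smc2 and Smc4), against 12.5% and 14.0% of all genes. Dendritic cell markers summed to 14697 and 16139 CPM with isotype against 11245 and 9054 under treatment, without overlap, and 10 of 12 stood lower. Macrophage markers summed to 1003 and 335 against 419 and 786 CPM, and 7 of 12 lay under an unadjusted p of 0.05, of which Mrc1 was called lower. The part of both lists in the result was not tested.

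The treated PD-1- pair differed within itself, which limits this comparison. Treated replicate 1 held 38 of the 44 genes, among them Plk1, Aurkb, Foxm1 and Kif11 at 88.0, 121, 58.0 and 76.0 CPM, and replicate 2, a library with Y-linked counts, held 23 and had these 4 at 0. With replicate 2 alone as the treated arm 10 genes were called, 8 of them lower, and with replicate 1 alone 8, of which 7 were higher. Bub1 and Nusap1 were in both sets. With replicate 1 alone, 21 genes were higher and 6 lower than both isotype libraries (all genes: 28.7% and 22.6%). The number was 5 without isotype replicate 1 and 1, Bub1, without isotype replicate 2. A fit of the 4 PD-1- libraries alone, limma-voom with quality weights and a block by replicate number each called 0.

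In CD4 T cells 0 of the 44 genes passed, where 0.00744% of all genes did, and 0 lay under an unadjusted p of 0.05 (0 also with DESeq2 and limma-voom). The 3 lowest p-values belonged to Smc4, at -0.39 ± 0.21, Pttg1, at 0.48 ± 0.45, and Anln, at -2.28 ± 2.89 (edgeR adjusted p = 1 for each). Under treatment 24 of the 44 stood higher, with a median of 0.05. Without overlap, 4 genes were higher (Nek2, Cenpa, Cenpe and Kif2c) and 3 lower (Bub1b, Anln and Smc4), against 12.5% and 15.5% of all genes. Without the 3 libraries with Y-linked counts edgeR called 0, and 4 were higher and 7 lower without overlap (all genes: 17.5% and 22.9%). The B and plasma cell markers all stood lower here too, with 527 and 358 CPM with isotype against 344, 287 and 143 under treatment. Treg markers summed to 413 and 466 CPM with isotype against 1000, 1115 and 1415 under treatment, without overlap. Mesothelial and stromal markers summed to 1587 and 1195 against 528, 320 and 901 CPM, also without overlap. The part of these lists in the result was not tested.

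Whether treatment acted differently in the Treg types was tested as an interaction. Bub1 was the 1 of 44 genes that passed (edgeR adjusted p = 0.0246), where 1.46% of all genes did, 0.841% with a positive and 0.618% with a negative difference. It stood at 30.4 and 26.3 CPM with isotype against 26.9, 20.5 and 50.8 under treatment in PD-1+ Tregs, where the ranges overlapped, and was at 0 under treatment in PD-1- Tregs. Bub1 was not called with a block by replicate number or by bracketed number. The call was lost without either isotype PD-1+ library, in a fit of the Treg libraries alone, on log2(RPKM + 1) and under limma-voom with quality weights. The number called was 8 without either treated PD-1- library, 5 without isotype PD-1- replicate 1 and 7 without the 3 libraries with Y-linked counts. Nusap1 came next (adjusted p = 0.058), with 67.6 and 36.9 CPM with isotype against 55.9, 47.3 and 26.3 under treatment in PD-1+ Tregs.

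Some of these genes share exon sequence with a neighbour in the count table, and the sources used here do not say whether counting used strand. Ncapg overlaps Lcorl by 699 bases, Kif20a overlaps Cdc23 by 977, Kif4 overlaps Pdzd11 by 683, Prc1 overlaps Rccd1 by 670, Ccna2 overlaps Exosc9 by 428 and Nusap1 overlaps Oip5 by 172, all on opposite strands. Cdc20, Cdca8 and Ube2c have shorter overlaps of this kind. On the same strand Ncapd2 overlaps Scarna10 by 237 bases and Foxm1 overlaps Tex52 by 144, which strand cannot tell apart. Their counts are uncertain to that extent. Ncapg was at 0 in all PD-1- libraries, and whether reads of Lcorl added to its level in the other populations was not tested.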

How the data were processed

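RNA of 14 sorted T cell libraries was deposited by the authors as raw counts per gene and as RPKM. Per the submitters' processing notes, HISAT2 2.0.4, SAMtools, HOMER 3.12 and DESeq2 were used with the mouse build mm10. The sources used here give neither the gene annotation nor how reads were assigned to genes or strands. Groups came from the labels, and the deposited counts were used without change.

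Counts were tested with edgeR 4.0.16 in R 4.3.3, as 1 fit of 6 group means over the 14 libraries, with TMM scaling, a filter at a minimum count of 10 and the robust quasi-likelihood test. The fit gave a common biological coefficient of variation of 1.22. P-values were adjusted by Benjamini-Hochberg over all 13434 genes tested, with a threshold of 0.05, in each of 7 comparisons. Populations were compared as the mean of their treated and isotype groups. CPM used TMM-scaled library sizes, and levels between genes were compared on the deposited RPKM, which divides by gene length. Alternatives were DESeq2 1.42.0, limma 3.58.1 (voom, quality weights, log2 RPKM), other filters, a replicate block, and fits without single libraries or without the 3 libraries with Y-linked counts. The script was tested on simulated data.

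Members and lists were chosen with earlier results of these data known. Values in every library are given for Mki67, Top2a, Cdk1, Ccnb1, Ccnb2, Birc5, Plk1, Aurkb, Foxm1, Stmn1 and each gene past the threshold, and changes for those or, with none, for the 3 genes with the lowest p. Prc1, Anln, Smc4 in treated PD-1- Tregs and Cenpe were also given by library, the last 2 chosen after their values were seen.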

Additional observations from a re-analysis of the deposited data

Results flagged for a closer look

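Single libraries stood apart from the rest of their population in 7 of 36 checks on the level or detection of the mitosis genes. Chance marks about 1 in 20 groups, but several flags fell on the same library. The checks are thus not independent, and whether 7 of 36 exceeds chance was not tested. Treated CD4 T cell replicate 2 held 41 of the 44 genes, while the other CD4 libraries held 44. Isotype CD4 T cell replicate 2 had the lowest Mki67 level, 38.8 CPM against 66.0 to 76.7 in the others. Treated PD-1+ Treg replicate 1 was low for the genes of mitotic entry, with 41.0 CPM of Cdk1 against 128 to 149 in the others and 51.8 CPM of Ccnb1 against 87.1 to 101. Treated PD-1- Treg replicate 1 was high for Plk1 at 88.0 CPM, Aurkb at 121 and Foxm1 at 58.0, where the other PD-1- libraries had 0 of Plk1, at most 1.36 CPM of Aurkb and at most 0.0931 of Foxm1.

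Bub1, Stmn1 and Prc1 differed between the Treg types in how treated and isotype libraries compared. For Bub1 the fitted log2 change in PD-1+ Tregs minus that in PD-1- Tregs was 12.64 ± 2.34 (edgeR adjusted p = 0.0246). Its size depends on the prior count, since treated PD-1- libraries were at 0. Stmn1 was higher in both treated than in both isotype PD-1- libraries, with mean levels 24.0 CPM apart. It was lower in all 3 treated than in both isotype PD-1+ libraries, and the interaction did not pass (edgeR adjusted p = 0.592). Prc1 went the opposite way, higher in all 3 treated than in both isotype PD-1+ libraries. In PD-1- Tregs Prc1 was lower in both treated than in both isotype libraries. Its interaction was called in 1 of 21 alternative analyses and not in the reported test. How many of all genes reversed in this way was not counted.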

How the results depend on the processing

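Of the counts of mitosis genes called in the 7 comparisons, those for treatment in CD4 T cells stayed at 0 under every alternative run. There 24 of the 44 genes stood higher in the reported test, 18 with limma-voom and 12 without the 3 libraries with Y-linked counts. For treatment in PD-1+ Tregs, DESeq2 called 2 genes and the other alternatives 0. For treatment in PD-1- Tregs, 2 genes in the reported test, the count was 15 with DESeq2, 4 with no filter, 1 on log2(RPKM + 1), 0 with quality weights and 0 in a fit of the compared libraries alone. It was 8 without the 3 libraries with Y-linked counts, and 1 to 10 when single libraries were left out. For PD-1+ against PD-1- Tregs, 7 in the reported test, it was 20 with DESeq2, 17 with limma-voom, 0 with quality weights, 0 in the compared libraries alone, and 1 to 21 when single libraries were left out. For PD-1+ Tregs against CD4 T cells, 0 in the reported test, it was 9 with DESeq2, 1 with limma-voom, 11 with quality weights, 5 in the compared libraries alone and 1 on log2(RPKM + 0.1), and stayed at 0 when single libraries were left out. For PD-1- Tregs against CD4 T cells, 4 in the reported test, it was 13 with DESeq2, 14 with limma-voom, 1 with quality weights, 9 on log2(RPKM + 0.1) and 2 to 16 when single libraries were left out. For the interaction, 1 in the reported test, it was 14 with DESeq2, 2 with limma-voom, 0 with quality weights, 0 in the compared libraries alone, 0 on log2(RPKM + 1), 7 without the 3 libraries with Y-linked counts and 0 to 8 when single libraries were left out. The cause was not tested. Where an arm was left with 1 library, that library was assumed to vary like the other groups.

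Libraries with the same replicate number did not deviate together, with correlations of at most 0.0354 within a treatment. With the number as a replicate block, edgeR called 0 genes for treatment in PD-1- Tregs, 1 for PD-1+ against PD-1- Tregs, 2 for PD-1- Tregs against CD4 T cells and 0 for the interaction. With the bracketed number of the titles as the replicate block it called 1, 1 and 0 for the last 3. By replicate number 8 of 14 libraries correlated best with a library of their own number, and by bracketed number 12 of 14. These best correlations were only 0.00725 to 0.0354. In groups of 2 libraries the deviations from the group mean mirror each other, so the 14 matches are not separate observations. The labels do not say what the bracketed number marks, but all 3 libraries that carry the number 3 held Y-linked counts, and whether it marks a shared source was not tested. The fits without the 3 libraries with Y-linked counts were chosen after seeing the data. A p that missed the threshold does not show that values did not differ.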

Other observations

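A wider set of 75 other mitotic genes, of which 74 were tested, was followed in the same libraries. PD-1+ Tregs had 64 of them higher than PD-1- Tregs, and 9 were called higher and 0 lower in edgeR. Of all genes tested, 8361 of 13434 were higher and 3.80% were called higher. Sgo1, which encodes shugoshin, the protector of centromeric cohesin, was at 0 in all 4 PD-1- libraries, and stood at 20.5 and 25.4 (isotype) and 30.5, 37.9 and 48.5 (treated) among PD-1+ libraries (CPM, edgeR adjusted p = 0.00537). Against CD4 T cells 64 of 74 stood higher in PD-1+ Tregs, and 0 were called in edgeR (7 under an unadjusted p of 0.05), where 5275 of all genes stood higher. Under anti-PD-L1, 3 were called higher in PD-1- Tregs (all genes: 1.38%), among them Cenpl, a kinetochore gene at 0 and 0 (isotype) and 42.7 and 57.5 (treated) among PD-1- libraries (CPM, edgeR adjusted p = 0.00701), and 0 in PD-1+ Tregs (2 under an unadjusted p of 0.05), where 26 stood higher and 48 lower. Of 23 S phase replication genes, 23 stood higher in PD-1+ Tregs than in CD4 T cells, and 0 were called in edgeR (5 under an unadjusted p of 0.05).

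Of 20 genes linked to cell cycle exit, Cdkn1a was called higher and Klf2 lower in PD-1+ than in PD-1- Tregs. Of all genes 3.80% were called higher there and 0.476% lower. Single calls in lists this short do not describe the lists. Cdkn1a, which encodes the CDK inhibitor p21, stood at 114 and 76.8 (isotype) and 74.3 and 119.7 (treated) among PD-1- libraries, and at 328 and 278 (isotype) and 209, 308 and 173 (treated) among PD-1+ libraries (CPM). All PD-1+ libraries were above all PD-1- libraries, by 1.45 ± 0.26 on the log2 scale (edgeR adjusted p = 0.0101). Klf2, a transcription factor of quiescent T cells, stood at 345 and 171 (isotype) and 96.9 and 125 (treated) among PD-1- libraries, and at 40.0 and 27.5 (isotype) and 24.5, 51.5 and 21.6 (treated) among PD-1+ libraries (CPM), lower in PD-1+ Tregs at -2.35 ± 0.39 (adjusted p = 0.00752). Cdkn1b, which encodes p27, stood at 971 and 956 CPM in isotype and 253 and 299.9 in treated PD-1- Tregs. It was lower under treatment at -1.80 ± 0.43 (edgeR adjusted p = 0.0473), where 1.29% of all genes were called lower. Among 16 G1 and S phase genes, Cdk6 was higher in PD-1+ Tregs (1.66 ± 0.26, edgeR adjusted p = 0.0174) and in PD-1- Tregs (1.26 ± 0.27, adjusted p = 0.026) than in CD4 T cells. Of all genes 0.171% and 0.275% were called higher in these 2 comparisons. The cyclin D2 gene Ccnd2 was lower in PD-1+ than in PD-1- Tregs (-0.64 ± 0.15, edgeR adjusted p = 0.0394). The macrophage and dendritic cell markers given above were also higher in PD-1+ Tregs, and their part in these differences was not tested.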
